A study of Mus musculus with 32 samples.

Results

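The 7 genes described here are 5 subunits of the GABA-A receptor (Gabra2, Gabra3, Gabra4, Gabra5 and Gabrb2) and the chloride transporters Slc12a2, known as NKCC1, and Slc12a5, known as KCC2. They were taken by their symbols from the 55291 symbols that each of the 4 count tables lists, and all 7 were found in every table. The study sequenced polyadenylated RNA of whole mouse brain from strain C57BL/6J in 8 groups of 4 libraries. Wild type (WT, Dhcr7+/+) and knockout (KO, Dhcr7-/-) brains were collected at 3 embryonic stages named E12.5, E14.5 and E16.5 after the day of gestation, or at birth (PND0). Dhcr7 is the reductase that finishes cholesterol synthesis, and its loss models Smith-Lemli-Opitz syndrome. Every group shared strain and tissue, and the labels name no treatment. The labels also do not describe the deleted part of Dhcr7, the sex or litter of a brain, or whether brains were pooled, so p-values measure the spread between these libraries.

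GABA opens a chloride channel built from 5 subunits, usually alpha and beta subunits with a gamma or delta subunit. The alpha subunit sets the affinity for GABA and the place of the receptor on the cell, and the beta subunit is needed for assembly and anchoring. Slc12a2 brings chloride into the cell and Slc12a5 carries it out. Immature neurons hold much chloride and are depolarized by GABA, and the rise of Slc12a5 during maturation is a textbook part of the switch to inhibition.

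Library totals ran from 13.87 to 28.32 M counts, where M is the usual mega prefix. Dhcr7 itself averaged between 62.5 and 89.2 CPM in the 4 WT groups and between 13.2 and 21.9 CPM in the KO groups, and every KO library lay below every WT library of its stage. CPM is the count per M counts of the library, with totals scaled by TMM (trimmed mean of M values) over all 32 libraries. KO replicate 1 of E12.5 stood apart by its ribosomal RNA gene CT010467.1, at 5.64% of all reads counted, as did WT replicate 1 of E16.5 at 3.75%. All 8 neuron markers (Tubb3, Stmn2, Snap25 and others) were detected in every group, with a summed level in WT of 2220 to 3560 CPM at E12.5 and 4810 to 5660 CPM at PND0. Markers of neural progenitors, 7 in number, summed to 2720 to 3260 CPM in WT at E12.5 and to 509 to 590 CPM at PND0. In whole tissue, fewer cells of a type and less RNA per cell cannot be told apart.

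Each receptor gene lies in a cluster of related subunits (GRCm38, GENCODE M21 annotation). Gabra2 (chr5:70957597-71095849) and Gabra4 (chr5:71569749-71658308) lie on the minus strand of chromosome 5, beside Gabrg1 and Gabrb1. Gabra5 is at chr7:57407672-57510059 on the minus strand, near Gabrg3. Gabrb2 (chr11:42419757-42629028, plus strand) lies near Gabra6, and Gabra3 (chrX:72432681-72656848, minus strand) lies near Gabre and Gabrq. Slc12a5 is at chr2:164960802-164999731 and Slc12a2 at chr18:57878678-57946821, both on the plus strand. Exons of Gabra4 share 46 nucleotides with Gabrb1, and exons of Gabra5 share 148 with the antisense gene Gm9962, which had 177 counts in all 32 libraries together. The strand setting of the counting is not given in the sources used here, so reads in those stretches cannot be assigned to 1 gene.

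Slc12a5, the potassium chloride exporter, rose 7.96-fold in WT from a mean of 46.1 CPM at E12.5 to 367 CPM at PND0. Its 4 WT libraries held 31.3, 38.2, 60.8 and 54.0 CPM at E12.5 and 136.6, 140.4, 129.4 and 135.7 CPM at E14.5. At E16.5 they held 131.6, 197.2, 128.8 and 142.6 CPM, and at PND0 330.3, 395.1, 415.0 and 326.6 CPM. The groups were therefore fully separated at the first and the last step, while E14.5 and E16.5 overlapped. Slc12a5 was higher at E14.5 than at E12.5 by 1.53 ± 0.18 (log2 fold change ± SE, edgeR quasi-likelihood test, Benjamini-Hochberg adjusted p = 0.00018) and higher at PND0 than at E16.5 by 1.26 ± 0.13 (adjusted p = 7.49e-06). The middle step was 0.17 ± 0.13 with an adjusted p of 0.291, and without E16.5 WT replicate 2, the highest library there, it was 0.01. Slc12a5 has 2 RefSeq starts, which give the KCC2a and KCC2b isoforms. The counts per gene do not separate them.

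The sequences before those starts are shown because Slc12a5 sets the ratio described further on, and those of Gabra5 and Gabra2 because they are the alpha genes with the largest and the smallest rise. They come from RefSeq (GRCm38.p6), run 5′ to 3′ on the strand of the gene and stop short of annotated exons. Capitals mark the motifs searched on both strands: the E-box CACGTG, the GC box GGGCGG and the TATA box TATAAA, of which no 2 overlapped.
Slc12a5 first start (chr2:164960596-164960801, plus strand): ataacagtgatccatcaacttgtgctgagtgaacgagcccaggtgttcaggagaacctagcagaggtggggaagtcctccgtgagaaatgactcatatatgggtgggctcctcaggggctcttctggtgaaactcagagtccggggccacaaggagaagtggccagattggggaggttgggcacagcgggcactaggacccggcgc
Slc12a5 second start (chr2:164967738-164967982, plus strand): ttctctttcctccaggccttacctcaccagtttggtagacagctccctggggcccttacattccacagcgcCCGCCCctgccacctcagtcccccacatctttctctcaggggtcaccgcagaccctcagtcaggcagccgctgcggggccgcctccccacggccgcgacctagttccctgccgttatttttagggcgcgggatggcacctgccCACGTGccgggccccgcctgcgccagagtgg
Gabra5 (chr7:57510065-57510309, minus strand): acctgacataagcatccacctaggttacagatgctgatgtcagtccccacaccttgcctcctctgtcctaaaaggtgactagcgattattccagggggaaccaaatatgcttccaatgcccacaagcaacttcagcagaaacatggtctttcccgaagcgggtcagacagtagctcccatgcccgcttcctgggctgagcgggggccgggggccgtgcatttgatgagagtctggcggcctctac
Gabra2 (chr5:71095855-71096099, minus strand): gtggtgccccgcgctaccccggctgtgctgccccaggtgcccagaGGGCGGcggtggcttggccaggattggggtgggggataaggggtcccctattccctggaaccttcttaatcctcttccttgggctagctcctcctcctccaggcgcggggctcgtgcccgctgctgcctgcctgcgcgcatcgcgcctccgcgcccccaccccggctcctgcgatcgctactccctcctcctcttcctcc
The window at the second Slc12a5 start held 1 CACGTG and 1 GC box, on the minus strand, and the window at Gabra2 held 1 GC box. Those at the first Slc12a5 start and at Gabra5 held none of the 3 motifs. Among the 32851 starts in the RefSeq table, 5.9% of windows of 245 bases held CACGTG, 32.1% the GC box and 12.2% the TATA box. For windows of 206 bases these shares were 4.5%, 25.8% and 9.4%. GC content was 66.5% at the second Slc12a5 start and 70.2% at Gabra2, against 57.3% at the first Slc12a5 start, 55.5% at Gabra5 and a median of 52.2% over all windows of 245 bases. A match is a description of letters and says nothing of a factor's binding.

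Slc12a2, the sodium, potassium and chloride importer, did not follow a straight path in WT. It held 108.8, 92.1, 80.8 and 84.7 CPM at E12.5 and 52.1, 54.1, 54.8 and 50.7 CPM at E14.5. The libraries of E16.5 were back at 78.0, 76.1, 84.5 and 76.3 CPM, and those of PND0 at 56.3, 47.5, 50.8 and 54.6 CPM. Each step separated the groups fully: down, then up, then down. The log2 fold changes were -0.82 ± 0.09, 0.59 ± 0.06 and -0.62 ± 0.08 (SE, edgeR, adjusted p = 5.27e-05, 2.37e-07 and 1.33e-05). The 5 markers of the choroid plexus, an epithelium that makes Slc12a2, summed to 109 to 197, 342 to 508, 420 to 812 and 296 to 592 CPM in the successive WT groups, and their part in the level of Slc12a2 was not tested.

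**Figure D1:**
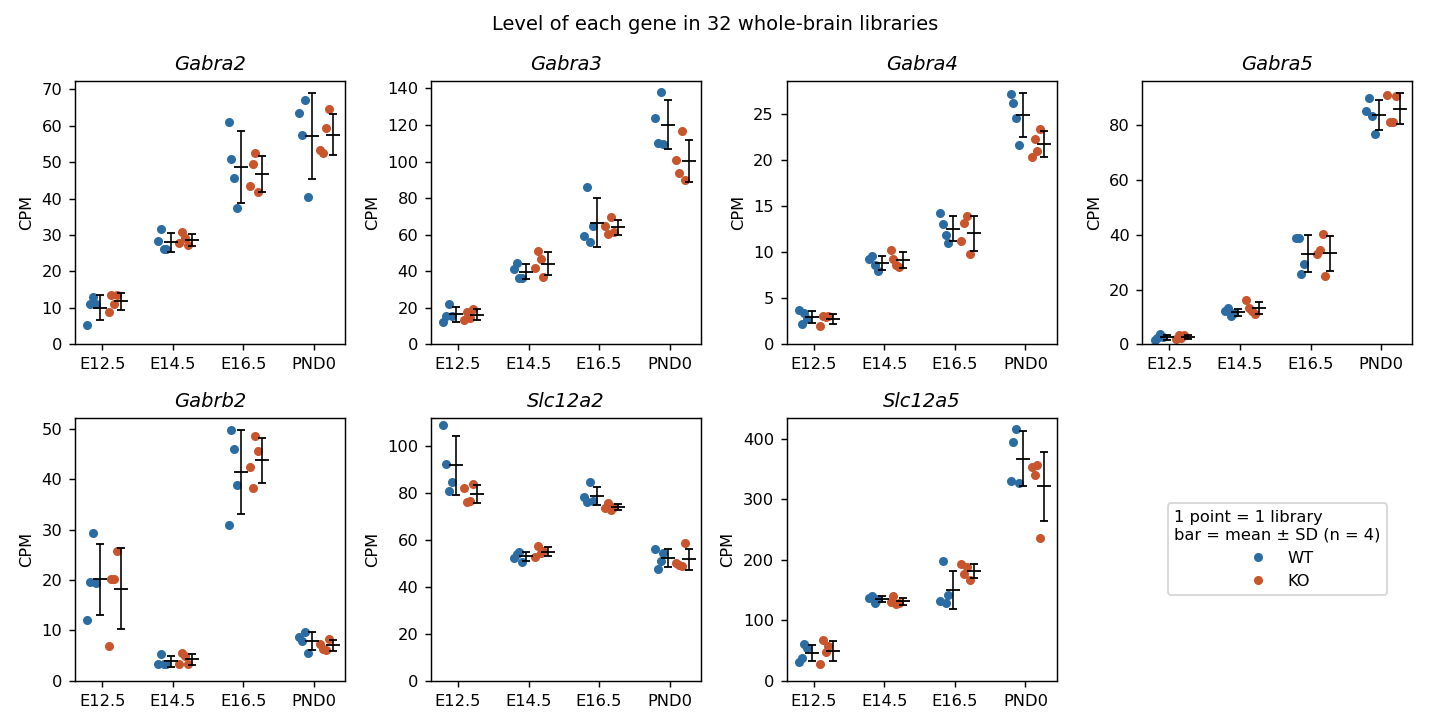
Level of each of the 7 genes in CPM (vertical axes, from 0) in each library at the 4 stages (horizontal axes), WT in blue and KO in orange, with a bar for the mean ± SD of 4 libraries. The 4 alpha subunits and Slc12a5 climb with stage, while Gabrb2 and Slc12a2 are high at E12.5 and E16.5 and low at E14.5 and PND0 in both genotypes.

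The 4 alpha subunits rose with age in WT, and Gabra5 rose furthest. Gabra5, best known from the hippocampus and from receptors outside synapses, held 1.63, 2.13, 3.63 and 2.62 CPM at E12.5, the lowest mean CPM of the 7 genes. It reached 12.2, 13.2, 10.2 and 11.3 CPM at E14.5, 39.0, 38.8, 25.6 and 29.2 CPM at E16.5 and 85.2, 89.9, 83.4 and 76.7 CPM at PND0. No library of a stage overlapped with the next stage, and the mean at PND0 was 33.5 times that at E12.5. The steps were 2.20 ± 0.21, 1.52 ± 0.14 and 1.31 ± 0.12 (log2 fold change ± SE, edgeR, adjusted p = 1.94e-05, 1.11e-06 and 1.62e-06).

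Gabra3, an alpha subunit typical of immature cortex and of monoamine neurons, was the most abundant of the 4 alpha genes per length at every WT stage. Its WT libraries ran from 12.4 to 22.1 CPM in the E12.5 group and from 36.1 to 44.7 CPM in the next. They ran from 56.1 to 86.2 CPM in the third and from 109.6 to 137.8 CPM in the PND0 group, with no overlap between stages. The steps were 1.25 ± 0.16, 0.77 ± 0.13 and 0.83 ± 0.12 on the log2 scale (SE, edgeR, adjusted p = 0.000146, 0.000573 and 0.000106). Gabra4, which in the adult joins delta subunits in receptors outside synapses, stayed low: 2.19 to 3.68 CPM at E12.5 and 21.7 to 27.2 CPM at PND0. It rose 8.37-fold in all, with steps of 1.54 ± 0.17, 0.53 ± 0.11 and 0.96 ± 0.12 (log2 ± SE, edgeR, adjusted p = 4.17e-05, 0.000838 and 1.23e-05).

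Gabra2, a synaptic alpha subunit of forebrain neurons, slowed before birth. Its WT libraries held 5.18 to 13.01 CPM at the first stage and 26.1 to 31.7 CPM at the second. E16.5 gave 37.4 to 61.1 CPM, and PND0 40.4 to 67.2 CPM. The first 2 steps were 1.45 ± 0.23 and 0.82 ± 0.13 (log2 ± SE, edgeR, adjusted p = 0.000682 and 0.000384), and the last, with overlapping groups, was 0.20 ± 0.17 with an adjusted p of 0.361.

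Gabrb2, the beta subunit of the most common adult receptor, alternated between stages by far more than the other members. Its WT libraries held 12.2, 19.6, 29.4 and 19.5 CPM at E12.5 and only 3.39, 5.35, 3.35 and 3.31 CPM at E14.5. They then held 30.8, 49.8, 46.0 and 38.9 CPM at E16.5 and 8.71, 7.92, 9.61 and 5.53 CPM at PND0. No stage overlapped its neighbour. The log2 steps were -2.40 ± 0.28, 3.43 ± 0.20 and -2.41 ± 0.18 (SE, edgeR, adjusted p = 0.000109, 2.16e-07 and 2.47e-07). KO libraries did the same, with means of 18.3, 4.28, 43.7 and 7.04 CPM.

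Since the stages were deposited in separate tables, the alternation was measured for the 12491 genes that averaged 5 CPM or more. The measure, chosen after the levels were seen, weighs the mean log2 CPM of the 4 stages as 1, -3, 3 and -1 over 4, and is 0 for a straight or parabolic path. It was 2.87 for Gabrb2 in WT and 2.82 in KO, and 0.12% of genes lay as far from 0, and from the top Gabrb2 ranked 3 among 11764 protein-coding genes. Slc12a2 had 0.63 in WT and 0.48 in KO, beyond which lay 8.63% of genes. Slc12a5 had -0.66 and -0.34, and the 4 alpha subunits lay between -0.38 and -0.05 in WT. Over all measured genes the median was -0.04, with 5th and 95th percentiles of -0.60 and 0.61.

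Genes with a positive value of at least 2-fold by this measure numbered 168, and 76 had a negative value of at least 2-fold. A lasting rise or fall between E14.5 and E16.5 also moves the measure. Gabrb1, for example, rose at every WT step and had 0.505 in WT. Genes past the mark were therefore not shown to be higher or lower in the tables of E12.5 and E16.5. Of these 244 genes, 156 were past the same mark on the same side in KO. Pseudogenes annotated as processed or unprocessed, counted together, were 25.3% of the genes on the positive side and 12.3% on the negative side. They were 1.60% of all measured genes. These shares are of genes whose type the annotation gives. The labels give no preparation or sequencing date, and stage and table cannot be told apart, so the cause of the alternation was not tested.

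**Figure D2:**
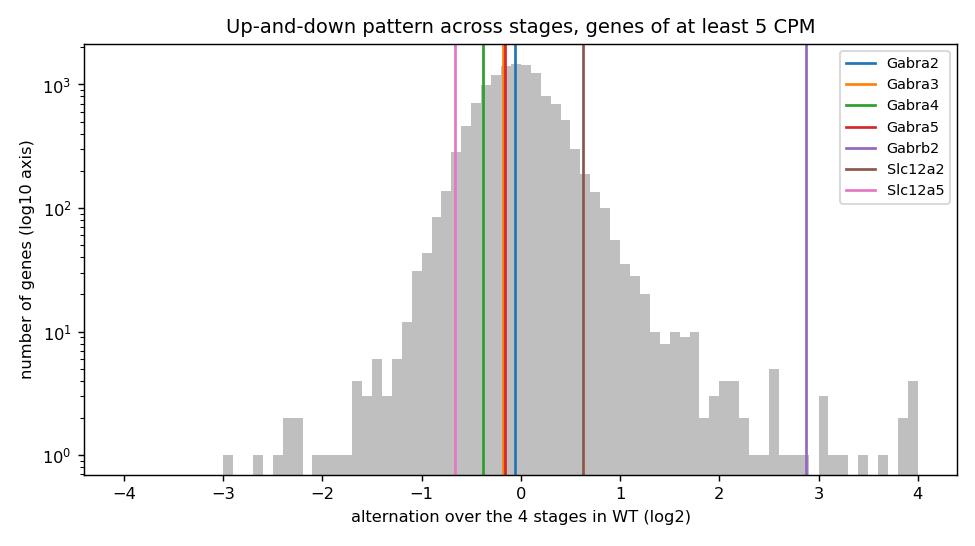
Number of genes (vertical, log10 axis) by the alternation of their WT means over the 4 stages (horizontal, log2; values beyond 4 are drawn at the edge), for 12491 genes of at least 5 CPM, with a coloured line for each of the 7 genes. Gabrb2 stands at 2.87, far in the right tail, while the alpha subunits lie near the centre.

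WT stages were therefore also compared within each pair of tables with the same sign of the alternation, a choice made after it was seen. From E12.5 to E16.5 Gabrb2 rose by 1.06 ± 0.24 (log2 ± SE, edgeR, adjusted p = 0.00385), and from E14.5 to PND0 by 1.06 ± 0.21 (adjusted p = 0.000313), a 2.06-fold ratio of means in both. Slc12a2 changed by -0.19 ± 0.09 (adjusted p = 0.1001) and 0.01 ± 0.07 (adjusted p = 0.893), with overlapping groups both times. Without E12.5 WT replicate 3 the former passed (-0.25, adjusted p = 0.0393), as it did with all 32 libraries in 1 fit. Slc12a5 rose by 1.73 ± 0.21 and 1.46 ± 0.07 (adjusted p = 0.000122 and 7.07e-11), and Gabra5 by 3.74 ± 0.24 and 2.86 ± 0.09 (adjusted p = 9.45e-06 and 6.38e-13).

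Counted over the WT steps, 5 of the 7 genes rose and 2 fell from E12.5 to E14.5, where 27.3% of 17942 tested genes rose and 30.5% fell. From E14.5 to E16.5, 6 rose and none fell, against 29.3% and 28.2% of 17674 genes. From E16.5 to PND0, 4 rose and 2 fell, against 26.0% and 27.2% of 17438 genes. Within pairs of tables, 6 rose and none fell both from E12.5 to E16.5 (29.2% and 30.0% of 17301 genes) and from E14.5 to PND0 (30.6% and 30.2% of 17897 genes). The median log2 change of the 7 genes was 1.45, 0.77 and 0.83 over the 3 steps, against -0.03, 0.01 and -0.01 over all genes. Of the 8 neuron markers 4, 6 and 4 rose at these steps, and of the 7 progenitor markers 5, 7 and 6 fell. Of 5 markers of meninges and mesenchyme (Col1a1, Dcn and others) 4 fell at the first step, with a median log2 change of -1.66. Their WT sums were 1405 to 3117 CPM at E12.5, 616 to 721 CPM at E14.5, and then 450 to 665 and 507 to 621 CPM. The part of these tissues and cells in the changes of the 7 genes was not tested.

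Per kilobase of exon, the order of the levels in WT at E12.5 was led by Slc12a2 at 8.39 ± 1.14 CPM per kb (SD, n = 4) and Slc12a5 at 6.19 ± 1.83, then Gabra3 at 4.17 ± 1.05 and Gabrb2 at 3.17 ± 1.11. Gabra2 (1.32 ± 0.44), Gabra5 (0.84 ± 0.29) and Gabra4 (0.49 ± 0.11) followed. Only Gabrb2 and Gabra2 were neighbours in this order whose libraries did not overlap. At PND0 Slc12a5 led with 49.2 ± 6.0 CPM per kb, above Gabra3 with 30.65 ± 3.42 and Gabra5 with 28.2 ± 1.9, which overlapped each other. Gabra2 had 7.49 ± 1.56, Slc12a2 4.79 ± 0.36, Gabra4 4.09 ± 0.40 and Gabrb2 1.25 ± 0.28 CPM per kb, and of these neighbours only Slc12a2 and Gabra4 overlapped. Slc12a2 thus moved from the first to the fifth place and Gabra5 from the sixth to the third.

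The ratio of Slc12a5 to Slc12a2, in counts per kb, turned from below 1 to far above it in WT. The 4 libraries had ratios of 0.42, 0.61, 1.10 and 0.93 at E12.5, and 3.85, 3.81, 3.46 and 3.92 at E14.5. At E16.5 they had 2.47, 3.80, 2.24 and 2.74, and at PND0 8.60, 12.2, 11.96 and 8.78. All but 1 of the 4 libraries at E12.5 had less Slc12a5 than Slc12a2, and every later library had more. The E12.5 libraries also differed in meninges and mesenchyme markers, with sums of 3117, 2105, 1405 and 1902 CPM in the same order. Slc12a2 ranked as these sums did in the 4 libraries, and Slc12a5 and the ratio ranked the opposite way. Whether that tissue moved the ratio at E12.5 was not tested. The mean log2 ratio rose by 2.39 at the first step and by 1.90 at the last (exact two-sided permutation test of 4 against 4, p = 0.0286, the smallest it can give, adjusted over 3 steps p = 0.0429). The middle step was -0.45 (exact permutation p = 0.0571, adjusted 0.0571). Within pairs of tables the ratio rose 3.84-fold from E12.5 to E16.5 and 2.73-fold from E14.5 to PND0 (exact permutation p = 0.0286 for each, adjusted over 2 comparisons p = 0.0286). Sums of the meninges and mesenchyme markers were 616 to 721 CPM at E14.5 and 507 to 621 CPM at PND0. Neuron markers summed to 3520 to 3660 and 4810 to 5660 CPM in these WT groups, and progenitor markers to 1820 to 2030 and 509 to 590 CPM. What part these tissues and cells had in the rises was not tested.

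**Figure D3:**
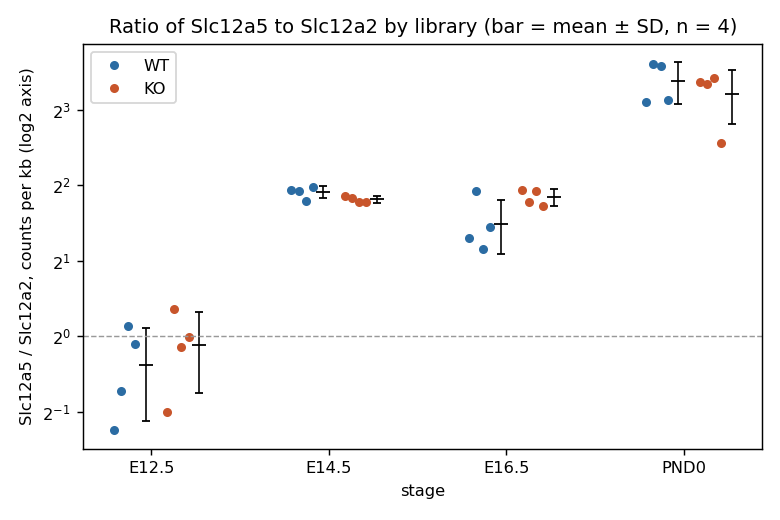
Ratio of Slc12a5 to Slc12a2 in counts per kb (vertical, log2 axis) for each library at the 4 stages (horizontal), WT in blue and KO in orange, with bars for the mean ± SD of 4 libraries and a dashed line at 1. WT libraries lie from 0.42 to 1.10 at E12.5 and from 8.60 to 12.2 at PND0, and KO overlaps WT at each stage.

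As shares of the summed counts per kb of Gabra2 to Gabra5, the alpha subunits shifted during WT development. By mean share Gabra3 stayed first and Gabra4 last at every stage. Gabra5 held 12.1% ± 1.2 (SD, n = 4) of the sum in the E12.5 group and 20.5% ± 0.8 in the next. It held 30.4% ± 2.6 in E16.5 brains and 40.1% ± 2.7 in those of PND0. Each of its steps, of 8.40, 9.83 and 9.77 percentage points, separated the groups (exact permutation p = 0.0286, adjusted over 15 share tests p = 0.0429). Gabra3 fell from 61.3% ± 1.8 to 52.7% ± 0.5 and 46.4% ± 5.1, both steps at the same p, and stood at 43.5% ± 2.7 at PND0, where the last step had an adjusted p of 0.5. Gabra2 held between 17.5% ± 3.0 and 19.2% ± 0.4 before birth and fell to 10.5% ± 1.4 at PND0 (adjusted p = 0.0429). Gabra4 held 5.71% ± 0.65 at E16.5, down from 7.59% ± 0.35 at E14.5 (adjusted p = 0.0429), and 5.82% ± 0.40 at PND0.

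At E12.5 the Gabra4 share was 12.1% in WT replicate 1 and 5.61 to 6.55% in the other WT libraries. Without that library its first step was 1.52 percentage points, against 0.01 with it.

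**Figure D4:**
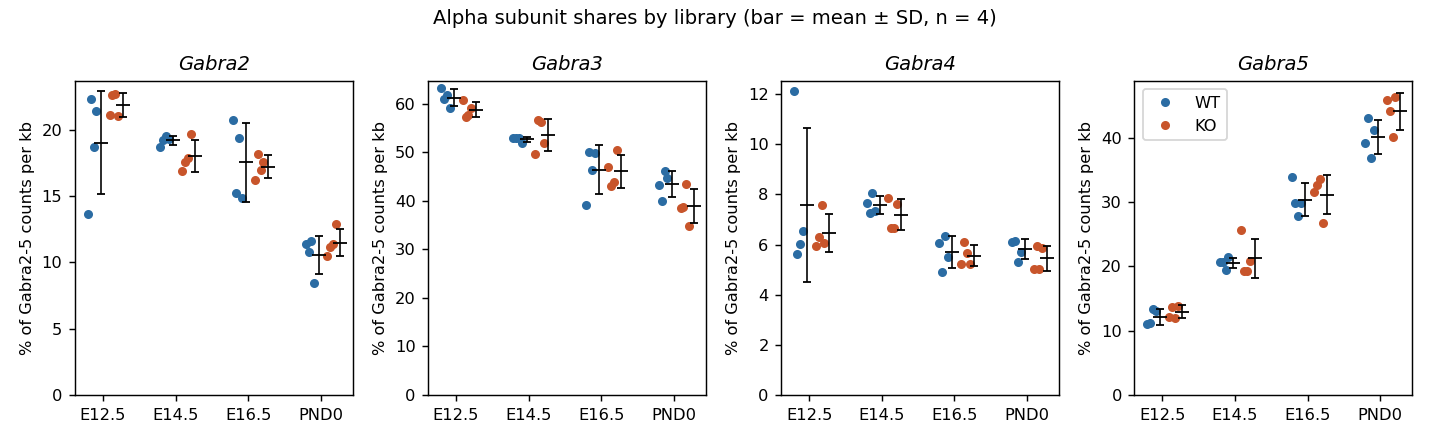
Share of each alpha subunit in the summed counts per kb of Gabra2 to Gabra5 (vertical axes, percent), for each library at the 4 stages (horizontal axes), WT in blue and KO in orange, with bars for the mean ± SD of 4 libraries. The Gabra5 share climbs from 12.1% to 40.1% in WT while Gabra3 goes from 61.3% to 43.5%, and KO libraries overlap those of WT.

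Over all 32 libraries the log2 CPM of the 4 alpha subunits and Slc12a5 ran together, with Pearson r from 0.932 to 0.987 between pairs, a description over libraries that share stages. Gabrb2 had r between -0.18 and 0.01 with these 5 and 0.73 with Slc12a2. The genes most like each member, among those of at least 5 CPM, were ranked in the same way. Gabra5 was closest to Opcml (r = 0.996), Bend6 and Faim2, Gabra3 to Enpp5 (r = 0.995), Dpp10 and Ntm, and Gabra4 to Prkce (r = 0.989), Gas7 and Srsf12. For Gabra2 they were Gdap1 (r = 0.980), Nol4 and Marchf4, and for Slc12a5 Cadm3 (r = 0.995), Apba1 and Atp9a. Between 1028 and 1460 genes had an r over 0.9 with each of these 5, so such likeness is common. Gabrb2 was closest to Xkr4 (r = 0.948), Zfp445 and Ttc14, and Slc12a2 to Kif5b (r = 0.947), Ttc37 and Eef1a1-ps1, with only 34 and 71 genes over 0.9. Xkr4 averaged 10.9, 2.63, 25.2 and 7.59 CPM in WT at the 4 stages, the same order of stages as Gabrb2.

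Between KO and WT, none of the 7 genes passed the threshold at any stage (edgeR quasi-likelihood test, adjusted p under 0.05). The background at E12.5 was 0.0177% of 16948 tested genes, and at E14.5 it was 0.527% of 17837. At E16.5 it was 0.0462% of 17328 genes, and at PND0 1.44% of 17420. At an unadjusted p under 0.05 there was 1 member, Gabra3 at PND0, where 18.0% of all genes were under that mark, and DESeq2 called none at any stage. The 7 genes had a median log2 fold change of -0.03, 0.06, -0.07 and -0.18 from E12.5 to PND0, against 0.00 over all genes each time. An F test for a change of the KO effect with stage called no member either, against 0.0256% of 19541 genes, and the smallest adjusted p among members was 0.484, for Slc12a2. At an unadjusted p under 0.05 that test also had no member.

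**Figure D5:**
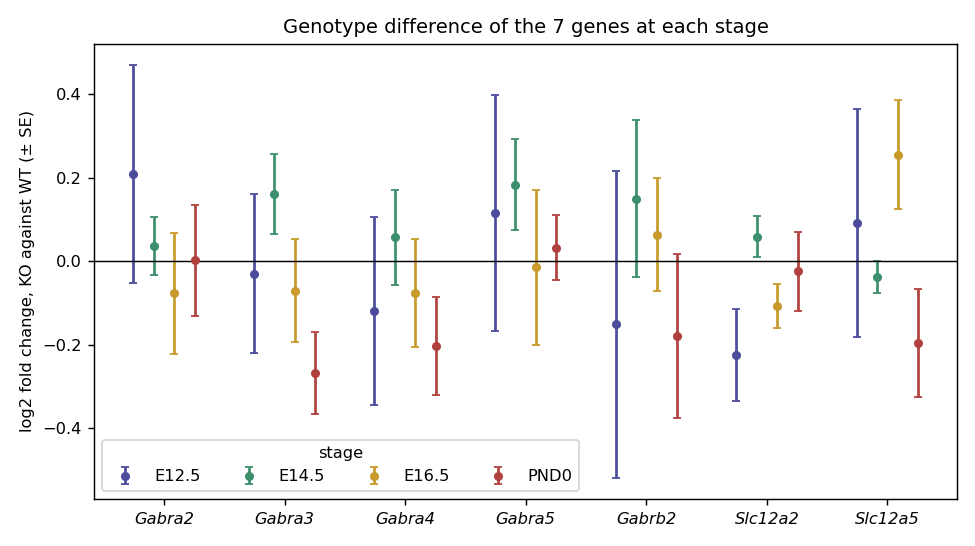
Log2 fold change of KO against WT (vertical) for each of the 7 genes (horizontal) at the 4 stages (colours), with bars for the SE from edgeR. All values lie between -0.27 and 0.26, and the SE is widest at E12.5.

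Gabra3 had the smallest p of any member, at PND0. Its KO libraries held 101.0, 93.9, 116.5 and 90.1 CPM and its WT libraries 123.8, 109.9, 137.8 and 109.6 CPM. One KO library lay within the WT range and the other 3 below it. The log2 fold change was -0.27 ± 0.10 (SE, edgeR, adjusted p = 0.164), and over the alternatives its adjusted p ran from 0.0710 to 0.740. At the earlier stages its log2 fold changes were -0.03 ± 0.19, 0.16 ± 0.10 and -0.07 ± 0.12. Its share of the alpha subunits at PND0 was 38.9% ± 3.5 (SD, n = 4) in KO and 43.5% ± 2.7 in WT (exact permutation p = 0.0857, adjusted over 20 tests p = 0.571).

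For Gabra5 the difference at PND0 was 0.03 ± 0.08 in level (log2 ± SE), with 81.2 to 91.2 CPM in KO and 76.7 to 89.9 CPM in WT. Its share was 44.2% ± 2.9 in KO and 40.1% ± 2.7 in WT (exact permutation p = 0.114, adjusted p = 0.571). Gabra4 at PND0 held 20.3 to 23.4 CPM in KO and 21.7 to 27.2 CPM in WT, a log2 fold change of -0.20 ± 0.12 (edgeR, adjusted p = 0.386). Gabra2 had 0.00 ± 0.13 there and values between -0.08 and 0.21 at the earlier stages. Gabrb2 ranged from -0.18 ± 0.20 at PND0 to 0.15 ± 0.19 at E14.5. At E12.5 its KO replicate 1, with the high ribosomal RNA share, held 6.92 CPM and the other KO libraries 20.1 to 25.8 CPM, against 12.2 to 29.4 CPM in WT. No test of an alpha subunit share between KO and WT passed, and the smallest exact permutation p was 0.0857 (adjusted 0.571).

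Slc12a2 at E16.5 held 73.5, 75.8, 72.5 and 73.8 CPM in KO and 78.0, 76.1, 84.5 and 76.3 CPM in WT, so the highest KO library lay just under the lowest WT library. How many of all genes had genotypes that did not overlap was not counted. The log2 fold change was -0.11 ± 0.05 (SE, edgeR, adjusted p = 0.463). At E12.5 it was -0.22 ± 0.11 (adjusted p = 0.875), with 76.0 to 83.6 CPM in KO and 80.8 to 108.8 CPM in WT. Meninges and mesenchyme markers there summed to 663 to 2704 CPM in KO and 1405 to 3117 CPM in WT, and their part was not tested. It was 0.06 ± 0.05 at E14.5 and -0.02 ± 0.09 at PND0.

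Slc12a5 at E16.5 held 192.6, 176.7, 188.1 and 166.3 CPM in KO and 131.6, 197.2, 128.8 and 142.6 CPM in WT. Every KO library was above 3 of the WT libraries and below WT replicate 2. The log2 fold change was 0.26 ± 0.13 (SE, edgeR, adjusted p = 0.489). Without E16.5 WT replicate 2 it was 0.41 with an adjusted p of 0.0318, the only alternative under which a member was called between genotypes. Summed neuron markers were 4540 to 5200 CPM in WT and 4530 to 4990 CPM in KO at that stage. At PND0 Slc12a5 was -0.20 ± 0.13 (adjusted p = 0.462), with 235 CPM in KO replicate 4, 340.5 to 356 CPM in the other KO libraries and 326.6 to 415.0 CPM in WT. Without that KO library it was -0.07. The values were 0.09 ± 0.27 at E12.5 and -0.04 ± 0.04 at E14.5.

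The Slc12a5 to Slc12a2 ratio did not pass between genotypes at any stage. KO ratios were 0.50, 1.29, 0.90 and 0.999 at E12.5 and 3.64, 3.57, 3.42 and 3.43 at E14.5. At E16.5 they were 3.84, 3.42, 3.80 and 3.30, and at PND0 10.3, 10.1, 10.7 and 5.90. Set against WT, the KO mean log2 ratio differed by 0.28 at E12.5 and by -0.10 at the second stage. At E16.5 the difference was 0.38, and at PND0 -0.19. The exact permutation p was 0.543, 0.0857, 0.0857 and 0.6 (adjusted over 4 comparisons 0.6, 0.171, 0.171 and 0.6). A test of 4 against 4 libraries cannot give a p under 0.0286. Without KO replicate 4 at PND0 the difference there was 0.01.

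The 7 lists with 51 other genes of GABA and chloride biology were counted beside the members: other GABA-A subunits, other cation chloride transporters, their kinases, other chloride routes, GABA synthesis, release and uptake, receptor anchoring, and the GABA-B receptor. Between genotypes 1 gene fell at E14.5 and 2 fell at PND0, of 45 tested at each stage, and none passed at E12.5 or E16.5 among 44. Among all tested genes 0.0177%, 0.527%, 0.0462% and 1.44% passed from E12.5 to PND0. At an unadjusted p under 0.05 there were 0, 6, 7 and 13 such genes from E12.5 to PND0, where 4.70%, 8.73%, 11.5% and 18.0% of all tested genes were under that mark. At PND0 33 of the 45 had a lower level in KO and 12 a higher one, with a median log2 fold change of -0.11 against 0.00 over all genes.

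Gad2, which makes GABA at nerve endings, held 84.8, 91.3, 79.7 and 85.6 CPM in KO and 125.6, 114.6, 122.8 and 117.9 CPM in WT at PND0. The genotypes were far apart, with a log2 fold change of -0.50 ± 0.07 (SE, edgeR, adjusted p = 0.00631). Its partner enzyme Gad1 had -0.31 ± 0.08 (adjusted p = 0.0661), and all 8 genes of GABA synthesis, release and uptake were lower in KO, of which only Gad2 passed. Gabrg1, a gamma subunit of the chromosome 5 cluster, held 27.0, 23.2, 21.6 and 19.8 CPM in KO and 33.9, 34.8, 32.5 and 30.1 CPM in WT. It fell by 0.52 ± 0.12 (adjusted p = 0.0400). This call was lost without any 1 of the 8 libraries (adjusted p from 0.0513 to 0.115), with log2 fold changes between -0.61 and -0.45. The Gabrg1 call was also lost in edgeR with offsets for exonic length (-0.44, adjusted p = 0.107). A covariate from sex-linked genes had the same outcome (-0.52, adjusted p = 0.0509). Both calls were lost with the ribosomal RNA gene as a covariate (adjusted p = 0.638 for Gad2 and 0.698 for Gabrg1), under which the log2 fold changes were -0.39 and -0.57 and the calls over all genes went from 250 to 2. That gene took 1.80 to 2.78% of counts in WT and 1.16 to 2.09% in KO at PND0. The 6 interneuron lineage markers (Dlx1, Lhx6 and others) summed to 197 to 409 CPM in WT and 266 to 442 CPM in KO, and none passed the test. Choroid plexus markers summed to 296 to 592 CPM in WT and 590 to 948 CPM in KO, and 4 erythroid markers to 99.2 to 130.3 CPM in WT and 104 to 1031 CPM in KO. Their part in these differences was not tested.

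At E14.5 Slc4a8, a sodium-driven chloride and bicarbonate exchanger, held 80.2, 83.5, 84.1 and 77.8 CPM in KO and 96.3, 97.5, 89.6 and 97.9 CPM in WT. It fell by 0.22 ± 0.04 (log2 ± SE, edgeR, adjusted p = 0.00416), and the call was lost with all 32 libraries in 1 fit. Its log2 fold change there was again -0.22, and the calls over all genes went from 94 to 4. At E16.5 it was 0.16 ± 0.06 (adjusted p = 0.326) and at PND0 -0.51 ± 0.13 (adjusted p = 0.0750). In lists with no call, the smallest p at PND0 belonged to the potassium chloride transporter Slc12a4 (0.29 ± 0.15, adjusted p = 0.321) and the transporter kinase Oxsr1 (-0.18 ± 0.07, adjusted p = 0.197). Others were Nlgn2, a protein of inhibitory synapses (0.25 ± 0.09, adjusted p = 0.139), and the GABA-B subunit Gabbr2 (-0.11 ± 0.11, adjusted p = 0.622). At E16.5 Gabbr2 had 0.28 ± 0.07 (adjusted p = 0.245), and without the filter on low counts it passed there (adjusted p = 0.00537). Genes with the smallest p of other lists at E16.5 were Slc12a4 (0.22 ± 0.09), the kinase Wnk2 (0.16 ± 0.06), Gad2 (-0.10 ± 0.06) and the synaptic protein Iqsec3 (0.22 ± 0.09), with adjusted p from 0.335 to 0.533.

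At E14.5 the genes with the smallest p in other lists, besides Slc4a8, were Slc12a7 (-0.10 ± 0.05), Wnk3 (0.17 ± 0.06), Abat (-0.10 ± 0.04), Shisa7 (0.09 ± 0.03) and Gabbr1 (0.06 ± 0.03), with adjusted p from 0.275 to 0.610. At E12.5 they were Gabre (-0.48 ± 0.23), Slc12a4 (-0.71 ± 0.38), Wnk4 (-0.32 ± 0.18), Slc4a3 (-0.18 ± 0.13), Gad2 (0.32 ± 0.24), Gabarap (0.13 ± 0.11) and Gabbr1 (0.18 ± 0.19), with adjusted p from 0.875 to 0.912. The larger SE at E12.5 went with larger differences that did not pass.

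Over the WT steps 29, 17 and 28 of these other genes rose and 6, 11 and 4 fell, of 43, 43 and 44 tested. Among all tested genes 27.3%, 29.3% and 26.0% rose and 30.5%, 28.2% and 27.2% fell. Among other GABA-A subunits the largest rises were those of Gabrg1 at the first and last step (1.84 ± 0.25 and 1.16 ± 0.12, log2 ± SE, edgeR, adjusted p = 0.000163 and 1.87e-06) and of Gabrb1 at the middle step (1.86 ± 0.10, adjusted p = 1.35e-09). Gabre, an epsilon subunit, fell by 1.01 ± 0.22 at the middle step (adjusted p = 0.000848). Of the transporters Slc12a9 (0.19 ± 0.07) and Slc12a8 (0.98 ± 0.31) rose most at the middle and the last step, and Slc12a7 fell by 0.33 ± 0.09 and 1.19 ± 0.09 at the first 2 (adjusted p of these at most 0.0308). The kinase Wnk2, which acts on these transporters, rose by 1.46 ± 0.14, fell by 0.88 ± 0.05 and rose by 0.73 ± 0.07. Wnk3 fell by 0.46 ± 0.10, rose by 0.86 ± 0.08 and fell by 0.72 ± 0.09, the same order of directions as Gabrb2 and Slc12a2. Within pairs of tables Wnk2 rose by 0.61 ± 0.14 from E12.5 to E16.5 and had -0.11 ± 0.05 from E14.5 to PND0 (edgeR, adjusted p = 0.00388 and 0.0796), and Wnk3 rose by 0.44 ± 0.12 and had 0.18 ± 0.08 (adjusted p = 0.0133 and 0.0546). Wnk1 fell by 0.59 ± 0.06 at the first step and by 0.39 ± 0.07 at the last, with 0.13 ± 0.06 between them (adjusted p = 0.0741).

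Slc6a11 and Gabbr2 rose at each step. The GABA transporter Slc6a11, found mainly in astrocytes, rose by 1.72 ± 0.30, 1.80 ± 0.12 and 1.61 ± 0.11 (log2 ± SE, edgeR, adjusted p at most 0.00128), and Gabbr2 by 1.90 ± 0.16, 0.88 ± 0.07 and 1.64 ± 0.09. Gad2 rose by 0.63 ± 0.21, fell by 0.36 ± 0.05 and then had 0.07 ± 0.07, which did not pass. The bicarbonate exchanger Slc4a10 rose by 1.37 ± 0.18, 1.28 ± 0.08 and 0.42 ± 0.11.

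Other list genes changed direction between steps. Slc4a8 rose by 0.60 ± 0.13, fell by 0.25 ± 0.05 and rose by 0.49 ± 0.13, and the chloride channel Clcn2 rose by 0.27 ± 0.06, fell by 0.40 ± 0.05 and had 0.09 ± 0.09 (adjusted p = 0.401). Among anchoring and trafficking genes Iqsec3 rose by 1.59 ± 0.20, fell by 0.29 ± 0.08 and rose by 0.99 ± 0.09. Gabarap fell by 0.42 ± 0.05, rose by 0.42 ± 0.05 and fell by 0.68 ± 0.06. Within pairs of tables Gabarap had 0.04 ± 0.06 from E12.5 to E16.5 (edgeR, adjusted p = 0.638) and fell by 0.22 ± 0.05 from E14.5 to PND0 (adjusted p = 0.00146). Rdx, known as radixin, fell at all 3 steps, by 0.38 ± 0.04, 0.48 ± 0.05 and 0.30 ± 0.07.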

How the data were processed

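The authors deposited 1 table of raw counts per gene symbol for each stage, with 8 libraries per table. Per the submitters' processing notes, HISAT2, SAMtools, featureCounts, DESeq2 and the build mm10 were used, with no version or order given. Per the labels' protocols, RNA was isolated with a lipid tissue kit, enriched for polyadenylated transcripts and read as 150 bp pairs. Every column of the tables was mapped to a library by its name.

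Counts were fitted with edgeR 4.0.16 in R 4.3.3 (TMM, filterByExpr with a minimum count of 10 and a minimum total of 15, robust quasi-likelihood F test). Each genotype comparison used the 8 libraries of its stage, each WT step the 8 WT libraries of both stages, and the change of the KO effect all 32. The p-values were adjusted by Benjamini-Hochberg over all genes tested in a fit, with a threshold of 0.05. As SE, the absolute log2 fold change over the square root of F was used. The fit was also run on simulated counts. The changes simulated were larger than any genotype difference of a member, so that run does not bear on differences of their size.

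Ratios and shares were computed from counts per kb of the union of exons in GENCODE M21 (GRCm38, the mm10 sequence), with 0.5 added to each count for the ratio, and tested by exact two-sided permutation. Log2 CPM for likeness and alternation used a prior count of 2. Pairs of libraries within groups were checked for copies: their chi-square per degree of freedom was at least 2.90 over 48 pairs. The genes named besides the members were those past the threshold in a genotype comparison, the smallest p of a list with none, and the largest rise and fall of each list per WT step. Members and lists were chosen with earlier results of these data known. Alternatives were RLE factors, no filter, DESeq2 1.42.0, single libraries left out, a replicate block, all 32 libraries in 1 fit, offsets for length, 2 covariates, other lengths and other pseudocounts. The starts of Slc12a2, some genes the rule would name and 1 share that counted in the adjustment of the share tests are not reported here.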

Additional observations from a re-analysis of the deposited data

Results flagged for a closer look

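Groups of 4 libraries were searched for 1 library whose gap to the nearest other exceeded Dixon's limit, in 96 sets of values (levels, shares and the ratio). Chance alone flags about 1 in 20 such sets, and 7 such values were found.

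Gabra4 held 1.98 CPM in E12.5 KO replicate 1, against 2.96 to 3.09 CPM in the other KO libraries. Gabrb2 held 5.35 CPM in E14.5 WT replicate 2, against 3.31 to 3.39 CPM in the others. In PND0 KO replicate 4, Slc12a2 was high at 58.4 CPM (others 48.8 to 50.3 CPM), Slc12a5 was low at 235 CPM (others 340.5 to 356 CPM) and their ratio was 5.90 (others 10.1 to 10.7). The summed neuron markers of that library, 5488 CPM, lay within the range of the other KO libraries. The Gabra3 share was 51.95% in E14.5 WT replicate 4, against 52.9 to 53.0% in the others. The Gabra4 share was 12.1% in E12.5 WT replicate 1, against 5.61 to 6.55%. What sets these libraries apart was not tested.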

How the results depend on the processing

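The count of members past the threshold kept its value within 1.5 times under 167 of 168 alternatives. The exception was KO against WT at E16.5 without WT replicate 2, where it went from 0 to 1 (Slc12a5); over the libraries left out there it ran from 0 to 1. None of the 90 alternatives for the ratio moved it by over 1 SD. With 1 library left out the ratio was judged by its value and not by the permutation test. Without single libraries the ratio between genotypes ran from 0.03 to 0.55 at E12.5, from -0.13 to -0.07 at E14.5, from 0.28 to 0.53 at E16.5 and from -0.27 to 0.01 at PND0 (log2).

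The replicate numbers did not pair the libraries: same-numbered WT and KO libraries correlated between -0.41 and 0.46, and at most 1 of 4 WT libraries per stage was closest to its own number. With a replicate block 0 members passed between genotypes at any stage and 7, 6 and 6 over the WT steps. Counts over all genes moved more: 3 genes at E12.5 became 1 to 52, 94 at E14.5 became 4 to 155, 8 at E16.5 became 3 to 233, 250 at PND0 became 2 to 1205, and 5 genes for the change with stage became 0 to 797. The cause was not tested. Gad1 passed at PND0 without the filter, with DESeq2 and with the replicate block (adjusted p = 0.0178, 0.0188 and 0.0493). Depth limits Gabra4 and Gabra5 at E12.5, with 26 to 74 counts per library.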

Other observations

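Gabrp, the pi subunit of the GABA-A receptor, was present at E12.5 only in part of the libraries. It held 12.96, 15.1, 0.17 and 16.2 CPM in WT and 15.5, 0.54, 0.00 and 14.7 CPM in KO. From E14.5 on, no library of either genotype had more than 0.13 CPM. The 3 libraries near 0 also had the lowest sums of 5 markers of meninges and mesenchyme at E12.5, with 1405 CPM in WT replicate 3, 663 CPM in KO replicate 2 and 734 CPM in KO replicate 3. The other 5 libraries had 1902 to 3117 CPM. Gabrp did not pass between genotypes at E12.5 by edgeR (log2 fold change -0.56 ± 1.23 SE, adjusted p = 0.953). A part of other tissue in these levels was not tested.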
